A study of Mus musculus with 4 samples.

Results

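The genes described here are the heme oxygenase gene Hmox1, the repressor gene Bach1, the transcription factor gene Nfe2l2 (which encodes NRF2), its inhibitor Keap1, and the NRF2 target genes Srxn1, Gclc, Gclm, Nqo1, Txnrd1 and Slc7a11. Members were all probe sets that the array's annotation assigns to 1 of these 10 genes and to no other gene, which gave 21 of 45037 probe sets, and all 21 were bright enough to be among the 27022 tested. The cells were mouse macrophages grown from bone marrow for 7 days with 20% L-cell conditioned medium, held overnight without it and primed with interferon-gamma at 100 U/ml. After washing, one group was given lipopolysaccharide (LPS), the bacterial ligand of TLR4, at 10 ng/ml for 2 h, and the other was given that dose for that time together with immune complexes, which engage Fc gamma receptors. Both groups therefore share the interferon-gamma and the LPS, and no unstimulated or unprimed array is part of the comparison. Each group had 2 arrays, numbered replicate 1 and replicate 2. The mouse strain, the antigen and antibody of the complexes, and whether replicates were separate cultures are not given in the sources used here, so p-values measure the spread between these arrays, which may be technical. In such bulk samples, fewer cells of a type and less RNA per cell cannot be told apart.

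NRF2 is a transcription factor that KEAP1 holds in the cytoplasm and marks for destruction until electrophiles or oxidants modify KEAP1. Freed NRF2 pairs with a small Maf protein (MafF, MafG or MafK) and binds antioxidant response elements near genes for glutathione synthesis, thioredoxin and quinone reduction and heme breakdown. BACH1 pairs with the same Maf proteins, occupies many of the same elements as a repressor and leaves them when it binds heme. In macrophages, heme oxygenase-1 is known as an enzyme of red cell recycling and as a restraint on inflammation.

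The trimmed mean signal was 500 on each array, while the median signal was 155.4 on the first array with immune complexes (LPS plus immune complexes replicate 1) and 68.2 to 88.3 on the other 3. The 5th percentile of signal was 28.1 on that array and 3.3 to 7.9 on the others. The 8 macrophage markers examined were all above the filter on signal, and their summed signal was 121440 and 150060 on the LPS arrays against 106890 and 125950 on those with complexes. Lyz2 was the brightest of them at 30714 to 44660, and Csf1r, the M-CSF receptor, read 26432 to 35375. Of markers of other cells, 2 of 5 for T cells, 3 of 4 for B cells, 4 of 7 for neutrophils, 3 of 5 for erythroid cells, 3 of 6 for fibroblasts and 1 of 4 for endothelium passed the filter. Their summed signals lay between 123.5 and 1580.1 per array and list, and Cd3e, Cd4, Ms4a1 and Pecam1, which did not pass the filter, were at 95.4 or less on every array. Of those that passed, Cd8a read 23.6 and 41.6 on the LPS arrays against 255.1 and 89.6 on those with complexes. Cd2 reached 218.3, Cd79a 284.6 and Kdr 359.4, each highest on LPS plus immune complexes replicate 1 and overlapping between the groups. The B cell marker Cd79b was lowest on that array, at 92.8 and 159.6 with LPS against 37 and 128.7 with complexes. Pax5, also of B cells, read 83.1 and 128.8 against 153.1 and 87.4, and both overlapped between the groups. The summed neutrophil markers were 959.7 and 1012.7 on the LPS arrays against 1575.3 and 1580.1 on those with complexes, and the summed T cell markers 123.5 and 185.8 against 749.3 and 232.3. S100a8 made up much of the neutrophil sum, at 540.8 and 504.7 on the LPS arrays against 871.3 and 1137.6 on those with complexes. Of the other neutrophil markers above the filter, Mpo was lower with complexes, at 95.2 and 108.2 against 65.7 and 79.9. Ngp and Camp overlapped between the groups. The part of these lists in the results was not tested.

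Bach1, Hmox1, Srxn1, Gclc and Gclm were higher with immune complexes on both arrays than on both LPS arrays, by 2.19-fold to 3.88-fold at the brightest probe set of each gene. The brightest probe sets of Slc7a11, Nqo1 and Txnrd1 overlapped between the groups, and those of Nfe2l2 and Keap1 were slightly lower with immune complexes. None of the 21 probe sets passed the test across all 27022 tested probe sets (limma, Benjamini-Hochberg adjusted p under 0.05), where 0.0444% were called higher and 0.0074% lower. At an unadjusted limma p under 0.05, 8 of 21 were higher, against 1.86% of all tested probe sets, and 0 were lower, against 0.947%. Groups did not overlap for 9 of 21 on the higher side (13.6% of all tested) and for 2 of 21 on the lower side (12%). Over the 4 pairings of an LPS array with an immune complex array, 4 of 21 were at least 2-fold higher in every pairing (0.755% of all tested) and 0 lower (0.185%). The 4 were both probe sets of Bach1 and 2 of Srxn1. The count was 9 without LPS replicate 1, where 773 of all tested probe sets did so, and 9 without LPS plus immune complexes replicate 2, where 3756 did. With an array left out fewer pairings remain, so such a count could only stay the same or rise. Fold changes here compare means of log2(signal + 32), which understates them for dim probe sets. With 2 arrays a group, an exact permutation test of a single gene cannot give a p below 0.33.

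**Figure D1:**
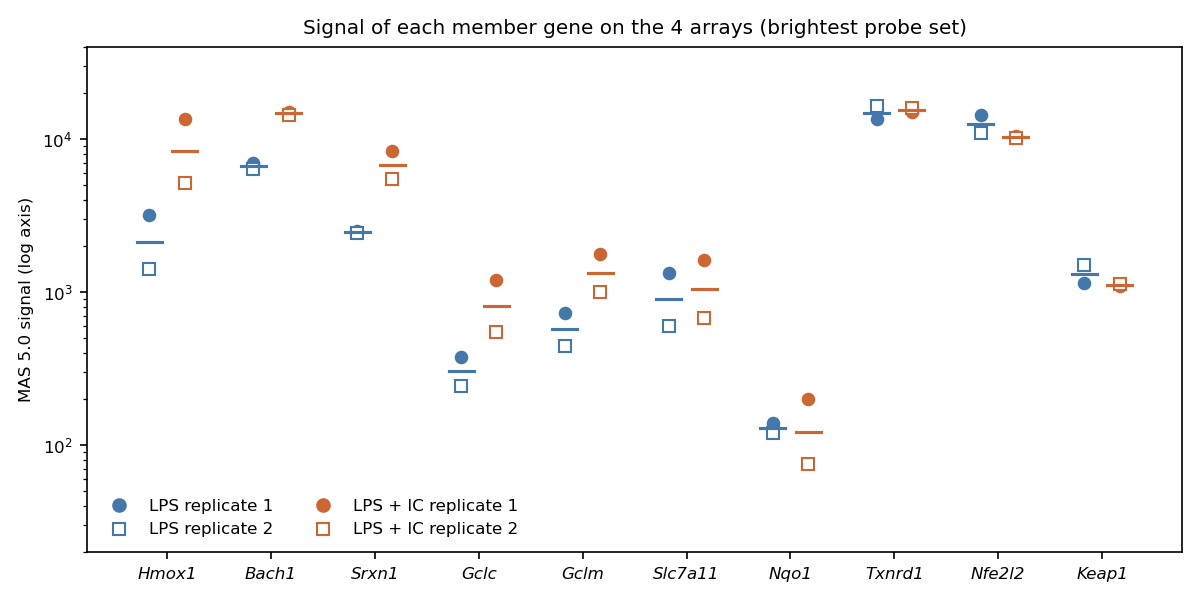
MAS 5.0 signal (log axis) of the brightest probe set of each member gene on each array; filled circles are replicate 1, open squares replicate 2, and bars the geometric mean of 2 arrays. Both arrays with immune complexes lie above both LPS arrays for Hmox1, Bach1, Srxn1, Gclc and Gclm, and Bach1 replicates differ by 1.10-fold with LPS and 1.05-fold with immune complexes. Heights are not comparable between genes, since each probe set has its own response.

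Among the regulators, the repressor Bach1 was higher with immune complexes at both of its probe sets, while probe sets of Nfe2l2 and Keap1 pointed both ways. The brightest Bach1 probe set read 7039.7 and 6424.5 on the LPS arrays against 15154.7 and 14382.6 on those with complexes. The groups stood well apart and the replicates were close, with ratios between 2.04 and 2.35 over the 4 array pairs. Its log2 fold change was 1.13 ± 0.26 (SE), at an adjusted p of 0.269 in limma. A dimmer Bach1 probe set read 376.9 and 480.1 on the LPS arrays against 1808.5 and 1224.3 on those with complexes, a log2 fold change of 1.73 ± 0.40 with the same adjusted p. By rank within its array, which no scaling of a whole array can alter, the brighter Bach1 probe set went from the percentiles 97.2 and 97.0 to 99.1 and 98.8 of all probe sets.

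The brightest Nfe2l2 probe set read 14459.5 and 10904.7 on the LPS arrays against 10531 and 10205.5 on those with complexes. The groups did not overlap, but array pairs gave ratios from 0.706 to 0.966, close to 1 at the upper end, and the log2 fold change was -0.28 ± 0.27, at an adjusted p of 1 in limma. The dimmer Nfe2l2 probe set had 0.31 ± 0.61 and followed the replicate number, at 1032.6 and 1248.6 on the replicate 1 arrays and 303.8 and 394.7 on the replicate 2 arrays. Keap1, which encodes the sensor and inhibitor of NRF2, read 1150 and 1518.2 on the LPS arrays against 1091 and 1125.8 on those with complexes at its brightest probe set. Its log2 fold change was -0.25 ± 0.37, and the other Keap1 probe set had 0.14 ± 0.46, both with limma adjusted p = 1.

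The small Maf genes, whose proteins pair with both NRF2 and BACH1, lay on the higher side. Mafk read 1617.9 and 1268.4 on the LPS arrays against 3778.6 and 3006.3 on those with complexes, a log2 fold change of 1.22 ± 0.35 at an adjusted p of 0.639 in limma and no overlap of the groups. Mafg had 0.60 ± 0.36 and, at a second probe set, 0.94 ± 0.42, each without overlap. Maff, added after its values were seen to complete the family, read 3126.8 and 1734.3 on the LPS arrays against 5650.1 and 3108.7 on those with complexes, so that LPS replicate 1 exceeded LPS plus immune complexes replicate 2. Its log2 fold change was 0.84 ± 0.40, and all 4 small Maf probe sets stayed above 0 with quantile normalization, with median centring and without each array in turn. Nfe2l1, a relative of NRF2 that controls proteasome genes, read 2444.6 and 2771.5 on the LPS arrays against 1467.6 and 1472.9 on those with complexes, a log2 fold change of -0.81 ± 0.34 (limma adjusted p = 1). Dcaf11, an adaptor of a ubiquitin ligase for NRF2, had -0.31 ± 0.35 without overlap at its brighter probe set and -0.09 ± 0.38 at the other. Of the 16 tested genes of partners and turnover factors, 2 were higher in all 4 pairs (12.5%) and 2 lower (12.5%), beside 13.2% and 13.1% of all 12891 tested genes, and the median log2 fold change was -0.06, beside 0.05 over all of them.

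Hmox1, the inducible enzyme that opens the heme ring and releases iron, carbon monoxide and biliverdin, had the largest log2 fold change of the members with all 4 arrays in the fit; without LPS replicate 2 it was 1.38, beside 1.42 for Srxn1. Its single probe set read 3195.5 and 1426 on the LPS arrays against 13583.9 and 5173.6 on those with complexes. Both arrays with immune complexes were above both LPS arrays, but replicate 1 was well above replicate 2 in each group. The pairwise ratios accordingly spread from 1.61 to 9.34. The log2 fold change was 1.96 ± 0.48, or 3.88-fold, with a limma adjusted p of 0.322. In percentiles of its own array the Hmox1 probe set stood at 94.2 and 88.9 on the LPS arrays against 99.0 and 96.3 on those with complexes.

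Hmox1 passed the limma threshold when LPS replicate 1 was left out, with a log2 fold change of 2.53 ± 0.42 and an adjusted p of 6.55e-06, the lone LPS array being assumed to vary like the others and the prior degrees of freedom being infinite in that fit. Without LPS plus immune complexes replicate 1 the value was 1.26, and with no filter on low signals the limma adjusted p was 0.0253. A Srxn1 probe set passed in these fits too, at 0.00472 without LPS replicate 1 and 0.0219 without a filter, so 2 member probe sets were called in each, beside 74 higher and 23 lower of all tested probe sets without LPS replicate 1 and 68 and 21 without a filter. Hba-a1, an alpha globin gene, read 40.3 and 49.3 on the LPS arrays against 246.3 and 123.4 on those with complexes. It was the only globin gene of the erythroid list that a probe set names alone. Probe sets that name several genes were not searched for the others. Of the other erythroid markers above the filter, Epor read 143.8 and 346.4 against 118.2 and 159.6, and Klf1 read 158.4 and 139.4 against 372.7 and 115.2, both with overlap. The summed erythroid markers were 391.2 and 557.8 on the LPS arrays against 899.4 and 453.1 on those with complexes, and their part in the Hmox1 values was not tested.

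Of the genes for glutathione synthesis, both subunits of glutamate-cysteine ligase, the rate-limiting enzyme, were higher with immune complexes, while readings of the cystine importer overlapped between the groups. Gclc, the catalytic subunit, read 375.9 and 245.7 on the LPS arrays against 1202.3 and 550.7 on those with complexes, a log2 fold change of 1.33 ± 0.47 (2.52-fold). Gclm, the modifier subunit, read 736.8 and 446 on the LPS arrays against 1780.2 and 1000.1 on those with complexes, a log2 fold change of 1.17 ± 0.43 (2.26-fold). Neither pair of groups overlapped, and both had limma adjusted p = 1, with unadjusted p of 0.0151 for Gclc and 0.0193 for Gclm. The dimmer probe set of each gene pointed the same way with overlapping groups, at 1.05 ± 0.59 for Gclc and 0.56 ± 0.54 for Gclm.

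Slc7a11, the light chain of the cystine-glutamate exchanger that feeds glutathione synthesis, read 1326.8 and 606.8 on the LPS arrays against 1626.8 and 679.1 on those with complexes. Both replicate 1 readings lay about as far above the replicate 2 readings in each group, by 2.13-fold and 2.33-fold, while within replicate 1 and within replicate 2 the array with complexes was 1.22-fold and 1.11-fold higher. The log2 fold change was 0.22 ± 0.50. Without LPS replicate 2 or without LPS plus immune complexes replicate 1, the sign turned, to -0.32 and -0.39. The dimmer Slc7a11 probe set read 482.3 and 117 on the LPS arrays against 935 and 228.7 on those with complexes, also with overlap and with 1.88-fold and 1.75-fold within the replicate numbers. Slc3a2, the heavy chain of the same exchanger, read 11293 and 11423 on the LPS arrays against 14688 and 15782 on those with complexes, a log2 fold change of 0.42 ± 0.25 without overlap (limma adjusted p = 1).

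Srxn1, which encodes sulfiredoxin, the enzyme that restores over-oxidised peroxiredoxins, was higher at every one of its 4 probe sets. The brightest read 2498.7 and 2445.9 on the LPS arrays against 8316.9 and 5455.6 on those with complexes. The LPS arrays were nearly equal, the lowest of the 4 array pairs still gave a ratio of 2.17, and the log2 fold change was 1.43 ± 0.33, at an adjusted p of 0.252 in limma. The probe set with the lowest p of all members was also one of Srxn1, at 801.9 and 519.4 on the LPS arrays against 3014.3 and 1993.7 on those with complexes. It had a log2 fold change of 1.87 ± 0.40 and a limma adjusted p of 0.223. The other Srxn1 probe sets had 1.37 ± 0.41 and 0.41 ± 0.43, neither with overlap of the groups, the last of them at 350.6 for its higher LPS reading and 377.1 for its lower reading with immune complexes.

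Txnrd1, the cytosolic thioredoxin reductase, and Nqo1, a quinone reductase, had overlapping groups at every probe set. The brightest Txnrd1 probe set read 13611.9 and 16367.7 on the LPS arrays against 14983.3 and 15946 on those with complexes, a log2 fold change of 0.05 ± 0.25, which turned to -0.15 with median centring. The 2 dimmer Txnrd1 probe sets had 0.73 ± 0.77 and 0.89 ± 0.79. The brighter of these read 1797.3 and 3079.7 on the replicate 1 arrays against 343.8 and 579 on the replicate 2 arrays. Within replicate 1 and within replicate 2, complexes over LPS gave 1.70-fold and 1.63-fold for it, and 1.68-fold and 2.03-fold for the other. The brightest Txnrd1 probe set gave 1.10-fold and 0.97-fold. Nqo1 was dim, at 141 and 120.4 on the LPS arrays against 199.8 and 75.7 on those with complexes. Its log2 fold change was -0.04 ± 0.62, an error so wide that no direction can be read from it.

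**Figure D2:**
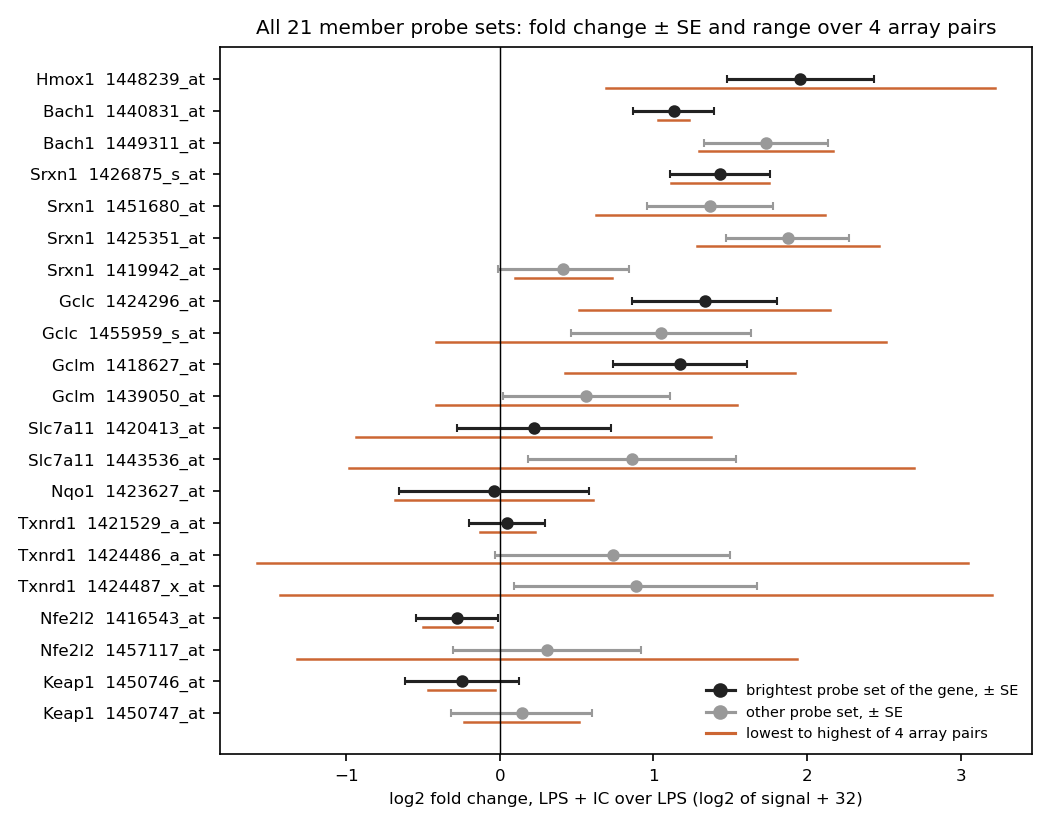
Log2 fold change (LPS plus immune complexes over LPS, log2 of signal + 32) of the 21 member probe sets; points with bars are limma's estimate ± SE, black for the brightest probe set of a gene, and orange lines run from the lowest to the highest of 4 array pairs. The orange lines lie wholly above 0 for 9 probe sets, those of Hmox1, Bach1 and Srxn1 and the brightest of Gclc and Gclm, and wholly below 0 for the brightest of Nfe2l2 and Keap1.

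Promoter windows of 250 bases before to 50 bases after the start of transcription were found in RefSeq's table (GRCm38.p6) for 8 of the 10 genes, with 3 windows for Txnrd1; Hmox1 and Gclc had none there. The letters TGACNNNGC, the core of the antioxidant response element, and TGAGTCA, the AP-1-like core that sites of Maf heterodimers can share, were searched on both strands; the reverse complement of the second, TGACTCA, can lie inside a match of the first. TGACNNNGC was in a window of Srxn1, Gclm, Nfe2l2 and Txnrd1 (1 of its 3), 4 of 8 genes, against 14.0% of 27025 genes in the table. TGAGTCA was in the Srxn1 window only among the members, against 5.9% of those genes. The 250 bases before the start are shown for Srxn1 and Gclm, which were higher with immune complexes, and for Nfe2l2, which holds the element core and had a log2 fold change below 0 at its brightest probe set; capitals mark the matches. The Srxn1 bases (chr2:152105274-152105523, plus strand) hold TGAGTCA beginning 102 and 45 bases before the start, and its TGACNNNGC match lies after the start, outside the bases shown. The Gclm bases (chr3:122245307-122245556, plus strand) hold TGACGGTGC on the reverse strand, beginning 134 bases before the start. The Nfe2l2 bases (chr2:75704664-75704913, minus strand) hold TGACTCCGC, beginning 240 bases before the start. These matches are letters in a window and were not tested as binding sites.
Srxn1: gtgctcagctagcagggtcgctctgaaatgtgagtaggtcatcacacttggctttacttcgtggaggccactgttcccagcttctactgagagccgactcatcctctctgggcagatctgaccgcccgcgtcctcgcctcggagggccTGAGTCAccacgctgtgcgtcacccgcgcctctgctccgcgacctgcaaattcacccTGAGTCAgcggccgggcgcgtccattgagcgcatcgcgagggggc
Gclm: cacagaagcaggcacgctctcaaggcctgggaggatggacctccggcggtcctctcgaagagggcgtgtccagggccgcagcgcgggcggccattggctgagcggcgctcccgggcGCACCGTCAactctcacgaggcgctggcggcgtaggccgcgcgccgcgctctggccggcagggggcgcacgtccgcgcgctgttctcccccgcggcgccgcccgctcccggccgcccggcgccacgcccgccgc
Nfe2l2: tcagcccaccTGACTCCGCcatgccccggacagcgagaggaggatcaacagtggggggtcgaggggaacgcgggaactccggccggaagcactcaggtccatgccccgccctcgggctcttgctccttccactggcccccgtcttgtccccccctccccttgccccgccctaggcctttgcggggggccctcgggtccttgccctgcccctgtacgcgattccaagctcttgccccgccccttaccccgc

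Besides the stimulus, the members differed between the replicate numbers. The replicate 1 array was above the replicate 2 array within both groups for 17 of 21 member probe sets, against 37.6% of all tested, and at least 2-fold above it in both groups for 7 of 21, against 5.06%. The 7 were the Hmox1 probe set, both of Slc7a11, the 2 dimmer ones of Txnrd1 and the dimmer ones of Gclc and Nfe2l2. Hmox1 was 2.21-fold higher on replicate 1 with LPS and 2.62-fold with immune complexes, and the dimmer Txnrd1 probe sets differed by 4.53-fold to 5.49-fold. Bach1 at its brightest probe set differed by only 1.10-fold and 1.05-fold. The brightest Txnrd1 and Keap1 probe sets were lower on replicate 1 in both groups. What the replicate number stands for is not given in the sources used here, and its part in these values was not tested.

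**Figure D3:**
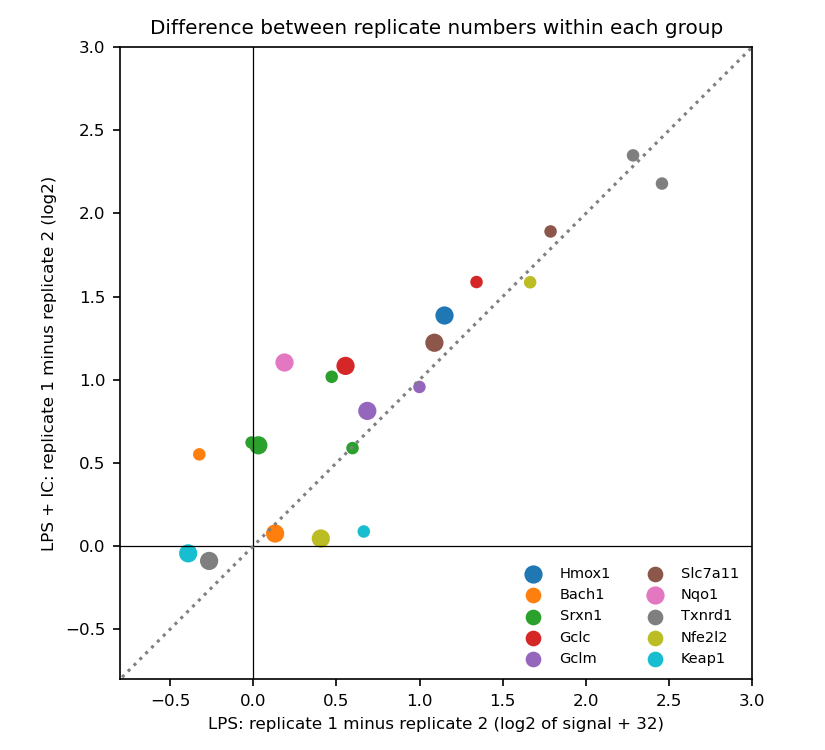
Difference between replicate 1 and replicate 2 (log2 of signal + 32) within the LPS group (horizontal) and within the LPS plus immune complexes group (vertical) for the 21 member probe sets; large points are the brightest probe set of a gene and the dotted line marks equal differences. Of the 21 points, 17 lie above 0 on both axes, the dimmer Txnrd1 probe sets farthest out, and Bach1 at its brightest probe set lies near the origin.

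Among all tested genes, the profile over the 4 arrays nearest to that of Hmox1, by root mean square difference of log2 values centred on their mean, was that of Slco1b2 (0.10), followed by Nts (0.17) and Nxf2 (0.17). All 3 were dim, with readings between 3.2 and 365.2. Ifnb1, the interferon-beta gene and 5th in that order, was named after its values were seen and read 1253 and 476.9 on the LPS arrays against 4574.3 and 1373.3 on those with complexes. Of the members, Gclc was nearest to Hmox1 at 0.39, followed by Gclm at 0.47, Srxn1 at 0.55 and Bach1 at 0.72, and Keap1 was farthest at 1.33.

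Other known NRF2 target genes lay on both sides of 0. Of 32 listed, 23 were tested, 3 were higher in all 4 pairs (13.0%) and 3 lower (13.0%), close to the 13.2% and 13.1% of all tested genes, none passed the limma threshold in either direction, and the median log2 fold change was -0.03. At an unadjusted limma p under 0.05, 0 were higher and 1 lower, beside 256 and 147 of all 12891 tested genes. The lower one was Abcc1, an exporter of glutathione conjugates, at 4340.9 and 4436.4 on the LPS arrays against 2927.2 and 2488.4 on those with complexes (log2 fold change -0.69 ± 0.31); a second Abcc1 probe set had -0.07 ± 0.43. Osgin1, an oxidative stress-induced growth inhibitor, read 133.1 and 139.4 on the LPS arrays against 556.9 and 154.6 on those with complexes, so its log2 fold change of 0.98 ± 0.58 rested on LPS plus immune complexes replicate 1 and was 0.15 without it. Gsta4, a glutathione transferase, read 283.3 and 82.9 against 62.1 and 61, and was at -0.30 without LPS replicate 1. Gstm1, another transferase, had 0.37 ± 0.39 at its brightest probe set with others on both sides of 0. Txn1, which encodes thioredoxin, the substrate of Txnrd1, had -0.19 ± 0.21, and 0.00 with quantile normalization, while its dimmer probe set had 0.74 ± 0.49.

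**Figure D4:**
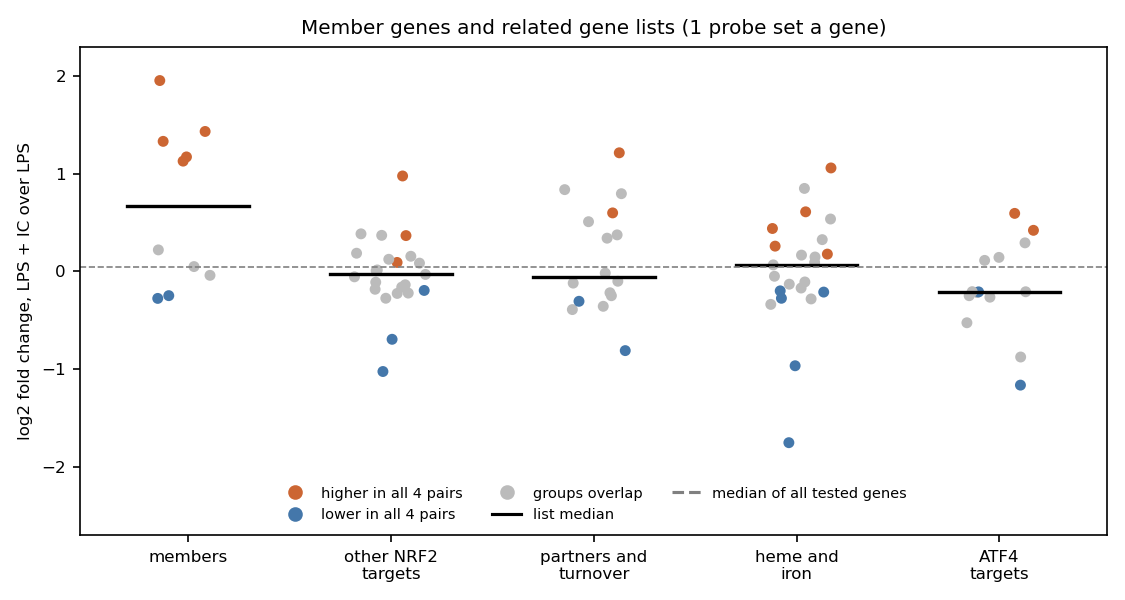
Log2 fold change (LPS plus immune complexes over LPS) of each tested gene in 5 lists, 1 probe set a gene; colours show whether the gene was higher or lower in all 4 array pairs, black bars are list medians and the dashed line is the median of all 12891 tested genes (0.05). The members have a median of 0.68, and the other lists have medians between -0.21 and 0.07.

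Genes of heme and iron handling went both ways. Of 27 listed, 23 were tested, 5 were higher in all 4 pairs (21.7%) and 5 lower (21.7%), beside 13.2% and 13.1% of all tested genes, none passed the limma threshold, and the median was 0.07. At an unadjusted limma p under 0.05, 1 was higher and 2 were lower, beside 256 and 147 of all 12891 tested genes. The higher one was Slc11a2, the iron transporter DMT1, at 1121 and 811 on the LPS arrays against 2101.7 and 1950.5 on those with complexes, a log2 fold change of 1.06 ± 0.37, with the other 3 probe sets between 0.51 and 1.08. The lower ones were Lcn2, lipocalin-2, which sequesters bacterial iron chelators, and Cp, the ferroxidase ceruloplasmin. Lcn2 read 1517.5 and 766 on the LPS arrays against 382.9 and 230 on those with complexes, a log2 fold change of -1.75 ± 0.46 at an adjusted p of 0.466 in limma. Cp read 3059.5 and 2116.1 on the LPS arrays against 1412.2 and 1173.3 on those with complexes, a log2 fold change of -0.97 ± 0.36, and its other 5 probe sets lay between -1.96 and -0.80. Flvcr1, a heme exporter, had 0.61 ± 0.35 and Mt1, a metallothionein, 0.44 ± 0.25, both without overlap. Biliverdin reductases, which act after heme oxygenase, had -0.27 ± 0.33 for Blvra and -0.21 ± 0.28 for Blvrb, both lower without overlap. For Blvra the gap was small, from 3384.1 on LPS replicate 1 to 3376.9 on LPS plus immune complexes replicate 2. The constitutive Hmox2 had -0.05 ± 0.33, with overlap. These 3 genes were added after their values were seen. Fth1, the heavy chain of the iron store ferritin and also added then, had -0.20 ± 0.21, lower without overlap.

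The list called ATF4 targets here held Atf4 itself besides targets of this stress factor, which is also known to drive Slc7a11. It had a median of -0.21 over 14 tested genes, with 2 higher (14.3%) and 2 lower (14.3%) in all 4 pairs. These shares were close to the 13.2% and 13.1% of all tested genes, and none of the 14 passed the limma threshold. At an unadjusted limma p under 0.05, 1 was higher and 1 lower, beside 256 and 147 of all 12891 tested genes. The higher one was Atf3, a stress-induced repressor, at 11798 and 12486 on the LPS arrays against 18197 and 18511 on those with complexes, a log2 fold change of 0.60 ± 0.24. The lower one was Nupr1, a stress-induced chromatin protein, at 20220 and 22797 on the LPS arrays against 6962.5 and 13126 on those with complexes, a log2 fold change of -1.16 ± 0.31 at an adjusted p of 0.483 in limma, and its second probe set had -1.43 ± 0.35. Shmt2 had -0.21 ± 0.38 at its brightest probe set, without overlap of the groups, and 0.43 ± 0.43 and -0.12 ± 0.64 at the others. The ATF4 median turned to 0.31 without LPS replicate 1 and to 0.33 without LPS plus immune complexes replicate 2.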

How the data were processed

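Total RNA of 4 macrophage samples was read on mouse Affymetrix arrays. The deposited values are linear intensities; the submitters' processing notes name MAS 5.0 as the authors' software, and the values show each array scaled as a whole to a trimmed mean of 500. No detection calls were used. Signals were taken as log2(signal + 32), 64 control probe sets were left out, and so were probe sets whose mean signal lay under the 40th percentile (69.6), leaving 27022. The arrays with immune complexes were set against the LPS arrays over all of them in limma 3.58.1 in R 4.3.3 (lmFit, eBayes with a variance trend, no block, two-sided), with Benjamini-Hochberg adjustment and a threshold of 0.05. The fit was also run on simulated data whose arrays varied independently, so differences shared by a replicate number were not covered. Probe sets were named from GEO's platform annotation, and all 10 gene IDs matched RefSeq with the same symbol. A gene is represented by its brightest tested probe set. Members, lists and tests were chosen with earlier results of these data known. Named list genes were those ordered alike in all 4 array pairs, the 5 largest per list, besides the exceptions stated. Alternatives were other scalings, pseudocounts, filters, thresholds, no variance trend, the replicate number as a block, and each array left out. Only 4 arrays limit the precision.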

Additional observations from a re-analysis of the deposited data

How the results depend on the processing

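Bach1, Hmox1, Srxn1, Gclc and Gclm stayed above 0 and Keap1 below 0 in all 13 alternatives run for each, with Hmox1 between 1.26 and 2.65 and Bach1 between 0.93 and 1.43. The number of member probe sets called higher was 0 in the main setting and 2 without a filter, and 0 to 2 when an array was left out; 0 were called lower in every alternative. At least 2-fold higher in all pairs were 4, and 4 to 9 with an array left out. With an array left out fewer pairs remain, so that count could only stay the same or rise. It was 3 with median centring, and 3 without probe sets whose names end in _x_at or _s_at. Higher in all pairs were 9, and 8 to 17 under alternatives added after seeing the data. The 8 came without those same probe sets. With an array left out, this count too could only stay the same or rise. The counts of 9 and 17 came without LPS replicate 1 and without LPS plus immune complexes replicate 2, where the number of all probe sets higher in all pairs went from 3665 to 8707 and 12602.

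Of all probe sets, 12 were called higher and 2 lower. The counts were 0 and 0 with quantile normalization, 33 and 14 with median centring, 6 and 0 with a pseudocount of 100, 68 and 21 without a filter, 4 and 0 with the 60th percentile as filter, 0 and 0 without a variance trend, and 32 and 5 at adjusted p under 0.1. With a pseudocount of 1, 20 were called higher. With an array left out, 0 to 77 were higher and 0 to 32 lower. The cause of these shifts was not tested.

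The replicate number was shared by the labels only. Across the tested probe sets the replicate deviations of the 2 groups correlated at 0.38, and across the 21 member probe sets at 0.88. With the replicate block limma called 8 member probe sets higher, those of Bach1 (2), Srxn1 (3), Hmox1, Gclc and Gclm, and 404 higher and 267 lower of all. Adjusted p with the replicate block was 1.11e-18 for Hmox1, 8.70e-09 for Bach1, 0.00515 for Gclc and 0.00425 for Gclm. That fit had infinite prior degrees of freedom, which gives every probe set of a signal level the same variance.

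The median of the member genes was 0.68, and 1.13 with the 60th percentile as filter, which left out Nqo1; it was 0.43 to 1 with an array left out. Median centring moved the median of all genes from 0.05 to -0.15, and those of other NRF2 targets to -0.23, heme and iron genes to -0.13 and partners to -0.25. The partners had 0.16 without a filter. With an array left out the medians ran from -0.27 to 0.13 for other NRF2 targets, -0.029 to 0.17 for heme and iron genes, -0.034 to 0.10 for partners and -0.69 to 0.33 for ATF4 targets. Signs turned for Nfe2l2 with the mean over its probe sets (0.015), for Slc7a11 without LPS replicate 2 (-0.32) and LPS plus immune complexes replicate 1 (-0.39), for Nqo1 without LPS replicate 1 (0.05) and LPS plus immune complexes replicate 2 (0.51), and for Txnrd1 with median centring (-0.15) and without LPS replicate 1 (-0.082). With an array left out, Slc7a11 ran from -0.39 to 0.83, Nqo1 from -0.59 to 0.51 and Txnrd1 from -0.082 to 0.18. None of these values was called. The looser element core TGANNNNGC was in 6 of the 8 member genes with a window, against 45.0% of all 27025 genes with one. TGACNNNGC was in 4 of the 8, against 14.0%.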
